A study of Mus musculus with 24 samples.

Results

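The genes described here are 40 genes of antioxidant defence and NADPH oxidase, of 18539 gene symbols on the arrays. They were fixed by name and found through the RefSeq accession of their probes, and each is read on its brightest probe in a tissue. They cover 3 superoxide dismutases, 5 genes of catalase and glutathione peroxidases, 6 peroxiredoxins and 6 genes of the thioredoxin system. A further 7 act in glutathione synthesis, recycling and transfer. The others are 5 of an NRF2 group (Nfe2l2, Keap1, Nqo1, Hmox1 and Hmox2), 2 metallothioneins, and 6 oxidant sources with the uncoupling protein Ucp2. All 40 had a probe, and 37 were well above background on all 24 arrays. The exceptions were Sod3, Cybb and Ncf1.

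RNA came from CD105+/CD45- cells sorted as endothelial cells from aorta and from skeletal muscle. The donors were male C57BL/6J mice (WT) and male B6.Cg-Lgals3tm1Poi/J mice (KO), which carry a deletion in the galectin-3 gene in all cells. From 8 weeks of age they ate a high-fat diet (HFD, 60% of calories from fat) or chow (12%) for 8 weeks. Each of the 8 groups of tissue, strain and diet has 3 single-colour Agilent arrays, 1 from each of experiments 1, 2 and 3, and the RNA on an array was pooled from 3 to 4 mice and amplified. Values are log2 of the processed intensity over the 75th percentile of the array, called log2 signal below, so that a difference of 1 is a doubling. Levels of different genes cannot be compared, since each probe has its own brightness.

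Superoxide dismutases turn superoxide into hydrogen peroxide, which catalase, glutathione peroxidases and peroxiredoxins then break down. Peroxiredoxins and glutathione peroxidases are recharged by thioredoxin and by glutathione. NRF2, held in check by KEAP1, switches on many of these genes when oxidants or electrophiles rise. NADPH oxidases make superoxide or hydrogen peroxide on purpose: endothelial and vascular cells are known for Nox4, and phagocytes for Cybb (also called NOX2). Obesity and diabetes are commonly studied in relation to oxidant stress of the vessel wall.

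The arrays and their labels set limits that touch the results. The scaling percentile ranged from 2390 to 5938 intensity units over the arrays, and 59.5% to 75.7% of spots were well above background. The 12 endothelial marker genes were well above background on every array, but 11 of 12 were called lower in aorta than in muscle, and their summed signal was 140 to 428 times the 75th percentile in aorta and 426 to 634 in muscle. The summed signal of 8 fibroblast markers was 303 to 691 in aorta and 23.3 to 223 in muscle. For 10 skeletal muscle fibre markers it was 1.66 to 7.61 in aorta and 21.2 to 169 in muscle. For 6 brown adipocyte markers it was 6.08 to 121 in aorta and 1.61 to 8.90 in muscle. The part of such cells in the tissue differences was not tested. The probe for Lgals3 was higher in the array labelled KO in 11 of 12 pairs, and whether it lies inside the deleted part was not analysed here. At 8 probes that separated the strains in experiments 2 and 3, on a scale where WT lies at 0 and KO at 1, the chow arrays of experiment 1 lay at 0.03 and 0.04 (WT) and at 0.89 and 0.97 (KO). The HFD arrays of that experiment fell at intermediate positions, 0.14 and 0.38 for those labelled WT and 0.40 and 0.26 for those labelled KO. Strains are therefore named as labelled, and the diet and strain differences printed below with an SE are also given without experiment 1. The aorta and muscle arrays of an experiment may come from the same mice, which the fits over both tissues do not take into account.

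Stretches upstream of 3 genes are shown first, since both metallothioneins were called higher in aorta and Gclm, the modifier subunit of the enzyme that starts glutathione synthesis, is a known NRF2 target. Each is the 250 bases before the start site, read 5' to 3' on the gene's own + strand from the RefSeq promoter table for GRCm38.p6. Capitals mark a metal response element core (TGCGCNC or TGCACNC) in Mt1 and Mt2 and an antioxidant response element core (TGACNNNGC) in Gclm, on either strand. The Mt1 stretch is chr8:94178839-94179088, the Mt2 stretch chr8:94172368-94172617 and the Gclm stretch chr3:122245307-122245556.
Mt1: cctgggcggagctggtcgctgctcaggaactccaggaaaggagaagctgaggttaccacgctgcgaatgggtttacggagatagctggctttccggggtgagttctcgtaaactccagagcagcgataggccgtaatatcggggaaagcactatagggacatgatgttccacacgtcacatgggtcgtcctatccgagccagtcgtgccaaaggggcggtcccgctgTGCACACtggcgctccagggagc
Mt2: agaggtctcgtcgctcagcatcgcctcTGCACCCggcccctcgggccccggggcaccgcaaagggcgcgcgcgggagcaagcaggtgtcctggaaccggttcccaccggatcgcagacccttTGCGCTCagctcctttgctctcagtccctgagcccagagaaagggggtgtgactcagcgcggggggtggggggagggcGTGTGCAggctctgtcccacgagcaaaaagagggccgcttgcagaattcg
Gclm: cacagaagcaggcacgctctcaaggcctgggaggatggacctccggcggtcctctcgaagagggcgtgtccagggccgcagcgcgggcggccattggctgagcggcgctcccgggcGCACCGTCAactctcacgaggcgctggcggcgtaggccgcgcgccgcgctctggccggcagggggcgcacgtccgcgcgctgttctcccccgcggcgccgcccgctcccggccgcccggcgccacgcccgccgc

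In these windows before the annotated start site, Mt1 held 1 metal response core and Mt2 held 3, and Gclm held 1 antioxidant response core. The other motif is not in capitals: Gclm also held 2 metal response cores and Mt2 1 antioxidant response core. A metal response core stood in the same window of 23.8% of 27025 genes in the table and of 10 of the 33 listed genes with an entry. An antioxidant response core stood in 11.5% of all genes and in 7 of the 33: Sod1, Prdx1, Txnrd1, Gclm, Nfe2l2, Mt2 and Ucp2. A match describes letters only, and the arrays did not measure binding. The counts depend on the annotated start site, and bases downstream of it were not searched.

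The first comparison asked which of these genes differ between endothelial cells of aorta and of skeletal muscle. The listed genes, which include oxidant sources and inhibitors as well as defence genes, were not uniformly higher in either tissue. Of the 40, 11 were called higher in aorta and 10 lower, and the median difference was -0.06. Genes called higher in aorta were Nox4, both metallothioneins, Sod3, Gpx3, Gpx7, Cat, Prdx3, Prdx4, Prdx6 and Gsta4. Genes called lower in aorta were Ucp2, Xdh, Nqo1, Hmox2, Nfe2l2, Keap1, Txnrd1, Txnip, Gss and Gsr. Called means an adjusted p (limma, Benjamini-Hochberg over all probes tested) under 0.05. Of all 27387 probes 46.1% were called, and of 14438 genes on their brightest probe 48.9% (19.8% higher and 29.1% lower in aorta), so that 21 of 40 lies near the background. Sod3 passed the filter on dim probes through aorta groups alone and was not tested with a filter that asked for every array. The median of all those genes was -0.21. With the scaling of the authors' log2 table the split of the 40 genes became 15 higher and 3 lower and the median of all genes 0.06. With the slide as a random block, which is the check that each slide held 1 tissue allows, 13 of the 40 were called, with Cat, Prdx3, Txnip, Txnrd1, Gss, Gsr, Hmox2 and Nfe2l2 lost, and without experiment 1, 2 or 3 there were 11, 14 and 12. Gpx7, Keap1, Mt1, Mt2, Nox4, Prdx4 and Ucp2 were called in every one of these settings. Because these are bulk samples, fewer cells of a type and less RNA per cell cannot be told apart.

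**Figure D1:**
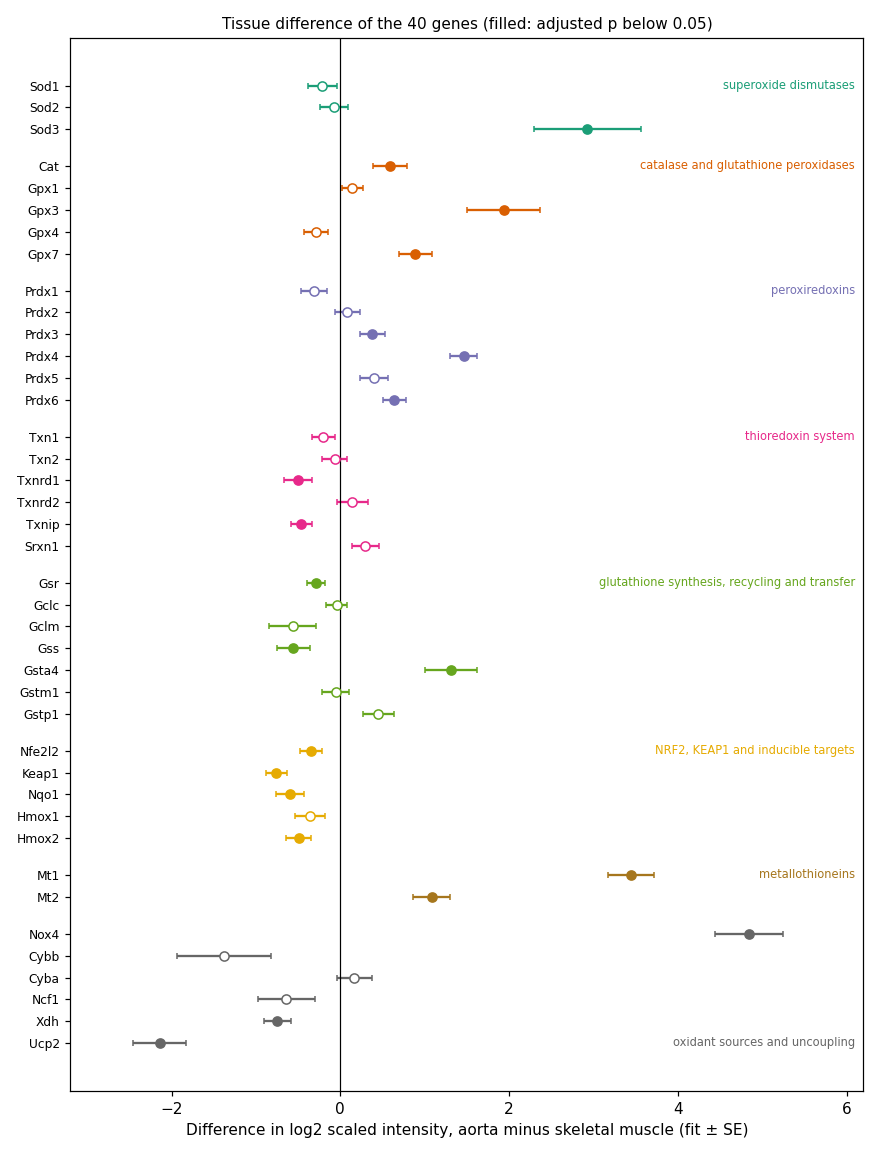
Difference in log2 signal between aorta and skeletal muscle for the 40 genes, grouped by role, as the limma estimate with its SE over 24 arrays; filled points have an adjusted p below 0.05. Nox4 (4.84) and Mt1 (3.45) lie farthest to the right and Ucp2 (-2.14) farthest to the left. The NRF2 group as cut here lies wholly left of 0, while Srxn1, placed in the thioredoxin group, lies to the right (0.29, not called).

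Nox4, the oxidase that makes mainly hydrogen peroxide without an added stimulus, had the largest difference of the 40. Its log2 signal ran from -0.05 to 2.68 in aorta, with a median of 1.71, and from -4.97 to -2.18 in muscle, with a median of -3.63. The tissues did not overlap, and aorta was higher in all 12 pairs of the same strain, diet and experiment. The fitted difference was 4.84 ± 0.41 (SE), or 28.7-fold, at an adjusted p of 2.7e-08. A second, dimmer Nox4 probe, well above background on 10 of 12 muscle arrays, gave 2.60. The size of the difference therefore depended on the probe, while both were called in the same direction. Within the aorta Nox4 varied widely among arrays of a group: the WT chow arrays of experiments 1, 2 and 3 were at 2.60, -0.05 and 2.68 and the KO chow arrays at 0.26, 1.60 and 0.57. The WT HFD arrays were at 2.47, 1.82 and 0.60 and the KO HFD arrays at 2.09, 2.09 and 0.17. No diet or strain stood apart in the aorta. In muscle they lay at -2.18, -3.50 and -3.77 (WT chow), -2.65, -3.93 and -4.11 (WT HFD), -2.68, -3.88 and -4.27 (KO chow) and -2.36, -2.92 and -4.97 (KO HFD). In every one of these muscle groups the array of experiment 1 was the highest.

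Of the other oxidant sources, Xdh, the xanthine oxidoreductase that can pass electrons to oxygen, was 0.75 ± 0.17 lower in aorta (adjusted p = 0.0012), in 11 of 12 pairs. The phagocyte oxidase genes did not pass the test, although some alternative settings called Cybb or Ncf1. Cybb, its catalytic subunit, differed by -1.38 ± 0.56 (adjusted p = 0.051) and was well above background on 7 of 12 aorta and 9 of 12 muscle arrays. Ncf1, a cytosolic organiser of that oxidase, differed by -0.64 ± 0.33 (adjusted p = 0.12), with 5 and 9 of 12 arrays well above background. Cyba, the membrane partner that Nox4 and Cybb share, differed by 0.16 ± 0.21 (adjusted p = 0.54). Nox4 and its partner Cyba thus did not show the same tissue difference.

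Ucp2, a carrier of the inner mitochondrial membrane named for uncoupling, had the largest difference in the other direction. Its log2 signal ran from -2.36 to 1.33 in aorta (median -0.78) and from 0.71 to 2.08 in muscle (median 1.68). The ranges overlapped, but muscle was higher in all 12 pairs, and the fit gave -2.14 ± 0.32 (adjusted p = 2.4e-05). The other Ucp2 probes gave -2.01 and -2.39 and were dimmer.

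Metallothioneins, small cysteine-rich proteins that bind zinc and copper and scavenge radicals, were both higher in aorta in all 12 pairs. Mt1 ran from 4.91 to 6.74 in aorta (median 5.90) and from 1.03 to 3.39 in muscle (median 2.64), so that the tissues did not overlap. Its difference was 3.45 ± 0.27, or 10.9-fold (adjusted p = 1.3e-08). Mt2 ran from 5.84 to 6.90 in aorta and from 4.08 to 5.99 in muscle, with a difference of 1.08 ± 0.22, or 2.12-fold (adjusted p = 0.00049). Cross-hybridisation between these close relatives was not tested. Nox4 and Mt1 were the only listed genes whose tissues did not overlap; 7.79% of all genes had such a gap.

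**Figure D2:**
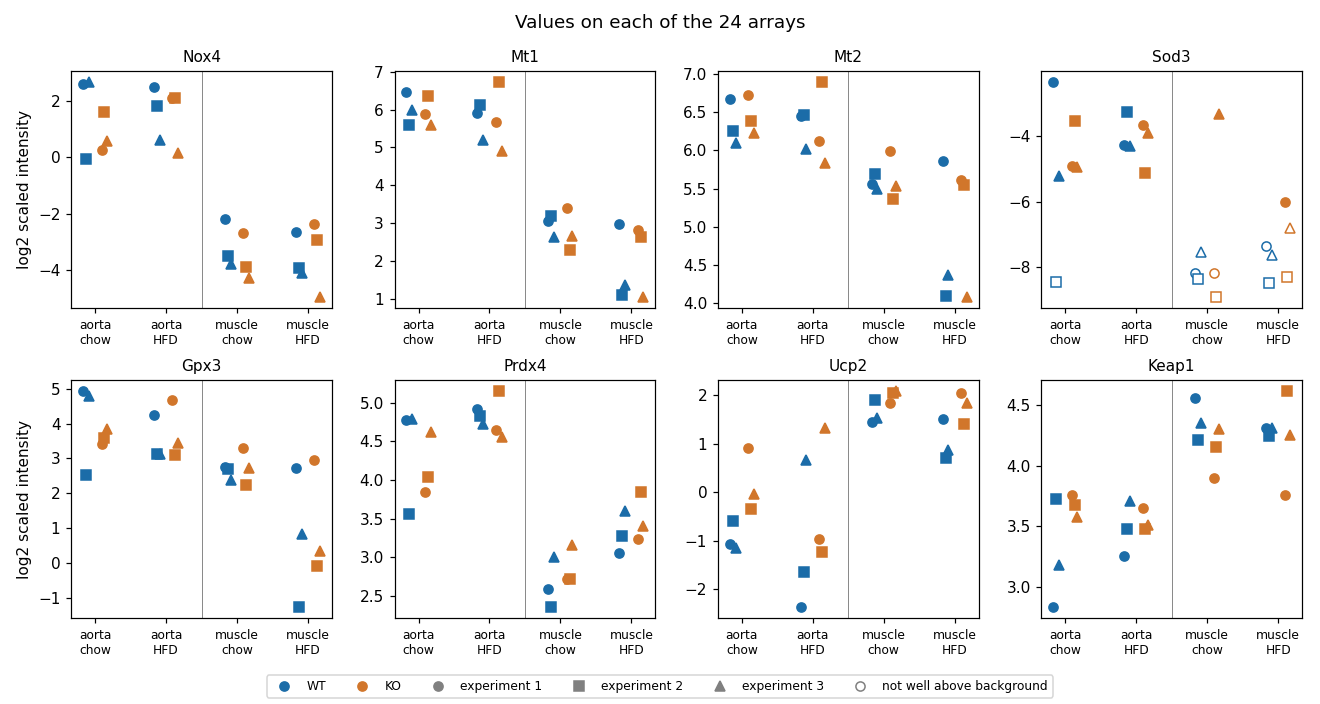
Log2 signal of 8 genes on each of the 24 arrays, by tissue and diet; colour gives the strain, marker shape the experiment, and open markers were not well above background. Nox4 and Mt1 separate the tissues without overlap, Sod3 is mostly open in muscle (2 of 12 arrays well above background), and Gpx3 drops to -1.27 on 1 muscle HFD array.

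Sod1 (cytosolic) and Sod2 (mitochondrial) differed by -0.22 ± 0.17 and -0.08 ± 0.16 between tissues and were not called. Sod3, the secreted dismutase of the vessel wall, was well above background on 11 of 12 aorta arrays and on 2 of 12 muscle arrays. In aorta the log2 signal lay at -2.33, -8.44 and -5.21 (WT chow), -4.26, -3.27 and -4.30 (WT HFD), -4.92, -3.54 and -4.95 (KO chow) and -3.67, -5.13 and -3.89 (KO HFD). The low value of the WT chow array of experiment 2 was the aorta value not well above background. In muscle none of the 6 WT arrays was well above background, and the values ran from -8.92 to -3.32. Taking dim muscle arrays at the lowest signal well above background, Sod3 was at least 2.77-fold higher in aorta. The adjusted p of the fit, 0.00094, rests on muscle values mostly below background.

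Among catalase and the glutathione peroxidases, Gpx3, the secreted form found in plasma, was higher in aorta by 1.93 ± 0.43 (adjusted p = 0.0012), from 2.52 to 4.93 in aorta and from -1.27 to 3.31 in muscle. Without experiment 3 it was not called (adjusted p = 0.060). Gpx7, which lies in the endoplasmic reticulum, was higher by 0.89 ± 0.19 (adjusted p = 0.0011) and catalase by 0.59 ± 0.20 (adjusted p = 0.024, but 0.092 with the slide as a random block). Gpx1, the main cytosolic form, and Gpx4, which reduces lipid peroxides, were not called (0.14 ± 0.12 and -0.29 ± 0.14).

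Of 6 peroxiredoxins 3 were called, near the 48.9% of all genes, and these 3 were higher in aorta (19.8% of all genes). Prdx4, the one of the endoplasmic reticulum, ran from 3.56 to 5.15 in aorta and from 2.35 to 3.84 in muscle. It was higher in aorta in 12 of 12 pairs, by 1.46 ± 0.16 (adjusted p = 7.6e-07). Prdx6 (0.64 ± 0.14, adjusted p = 0.00087) was also higher in all 12 pairs, and mitochondrial Prdx3 (0.38 ± 0.14, adjusted p = 0.039, but 0.16 with the slide as a random block) in 11. Prdx1, Prdx2 and Prdx5 differed by -0.31, 0.08 and 0.40 and were not called. The fibroblast markers, genes of cells that secrete matrix, were also higher in aorta (8 of 8 called, median 4.16), and their part in the tissue differences was not tested.

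Of 6 thioredoxin genes 2 were called lower in aorta, and of 7 glutathione genes 2 were called lower and 1 higher. Of all genes 29.1% were called lower and 19.8% higher. None of the 4 lower calls (Txnip, Txnrd1, Gss and Gsr) was made with the scaling of the authors' log2 table, which called Srxn1 and Gstp1 higher instead. Nor was any of them made with the slide as a random block, at adjusted p from 0.054 to 0.15. Txnip, the inhibitor of thioredoxin that glucose induces, ran from 5.33 to 5.79 in aorta and from 5.23 to 6.65 in muscle, with a difference of -0.46 ± 0.13 (adjusted p = 0.0057). Txnrd1, the cytosolic thioredoxin reductase, was lower in aorta by 0.50 ± 0.17 (adjusted p = 0.020). Txn1, Txn2, Txnrd2 and Srxn1 were not called, at -0.20 to 0.29; the Txn2 value leaves out 1 array whose spot was marked as an outlier. Gss and Gsr, for glutathione synthesis and its reduction, were lower by 0.56 ± 0.19 and 0.29 ± 0.11 (adjusted p = 0.024 and 0.033). Gsta4, which conjugates glutathione to 4-hydroxynonenal, was the exception, 1.31 ± 0.31 higher in aorta (adjusted p = 0.0020). Its lowest muscle value, -5.83, lay near the lowest signal well above background on that array (-5.97). Gclc, Gclm, Gstm1 and Gstp1 were not called on the brightest probe, although a second Gstp1 probe was (0.57, adjusted p = 0.0039).

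All 5 genes of the NRF2 group had lower values in aorta, and 4 were called, beside 29.1% of all genes called lower. This holds for the group as cut here. NRF2 targets placed in other groups went either way: Srxn1 differed by 0.29, Gclc by -0.04, Txnrd1 by -0.50 and Gclm by -0.56. Keap1, the adaptor that marks NRF2 for degradation, was lower in 12 of 12 pairs, by 0.76 ± 0.12 (adjusted p = 6.9e-05). Nqo1, a quinone reductase, was lower by 0.60 ± 0.17 (adjusted p = 0.0069), Hmox2, the constitutive haem oxygenase, by 0.50 ± 0.15 (adjusted p = 0.013) and Nfe2l2, which encodes NRF2, by 0.35 ± 0.13 (adjusted p = 0.036). Hmox2 and Nfe2l2 were not called with the slide as a random block (adjusted p = 0.054 and 0.13). The fall in these 4 holds against the 75th percentile; with the scaling of the authors' log2 table Keap1 alone of them was called. Hmox1, the inducible haem oxygenase, ran from -1.39 to 0.06 in aorta and from -1.07 to 0.17 in muscle and was not called (-0.36 ± 0.18, adjusted p = 0.11).

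Of 80 further genes of the same pathways, listed by name, 68 were tested between tissues, 24 were called higher in aorta and 9 lower, with a median of 0.13, beside 19.8% and 29.1% of all genes. The 3 with the largest change of 1 sign in all 12 pairs were Ucp1, Gsta3 and Pon3, all higher in aorta. Ucp1, the uncoupling protein of brown fat, ran from 0.80 to 4.89 in aorta and from -9.45 to -5.31 in muscle, where it was well above background on 2 of 12 arrays. Gsta3, a glutathione transferase, differed by 6.24 ± 0.33 (adjusted p = 1.3e-10) and Pon3, a lactonase, by 4.41 ± 0.25. Of genes for glutathione and thioredoxin handling 11 of 28 were higher and 5 lower.

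The second comparison asked whether HFD changed these genes against chow, in pairs of arrays of 1 strain and experiment. No listed gene was called in either tissue or strain. In aorta, over the 6 pairs of both strains, 0 of 39 tested genes had an adjusted p under 0.05 and 6 had an unadjusted p under 0.05; 0.0309% and 15.1% of all 25865 probes did. In muscle 0 of 39 were called and 8, Cybb among them, had an unadjusted p under 0.05; 0.288% and 16.4% of all 25682 probes did. The 6 of 39 in aorta lie near the background, and so, a little above it, do the 8 of 39 in muscle. The listed genes count on their brightest probe and the shares over every probe tested, so that the comparison is rough. The median difference of the 39 genes was -0.05 in aorta, beside 0.05 for all genes, and 0.09 in muscle, beside 0.04. Ncf1 was too dim for a test in aorta and Sod3 in muscle.

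Within a strain, 0 listed genes were called in WT aorta and 0 had an unadjusted p under 0.05, against 0% and 5.77% of probes. In KO aorta the counts were 0 and 2, against 0% and 11.3%. In WT muscle they were 0 and 5, against 0% and 12.1%, and in KO muscle 0 and 4, against 0.00389% and 8.49%. The difference of the strains in their response was called for 0 genes in aorta, with 0 at an unadjusted p under 0.05 (0% and 2.62% of probes), and for 0 and 0 in muscle (0% and 4.12%). By the one-sample test on the ratios that the study's methods used, 0 genes passed after adjustment in any strain and tissue, and 0, 1, 3 and 4 passed unadjusted in WT aorta, KO aorta, WT muscle and KO muscle.

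**Figure D3:**
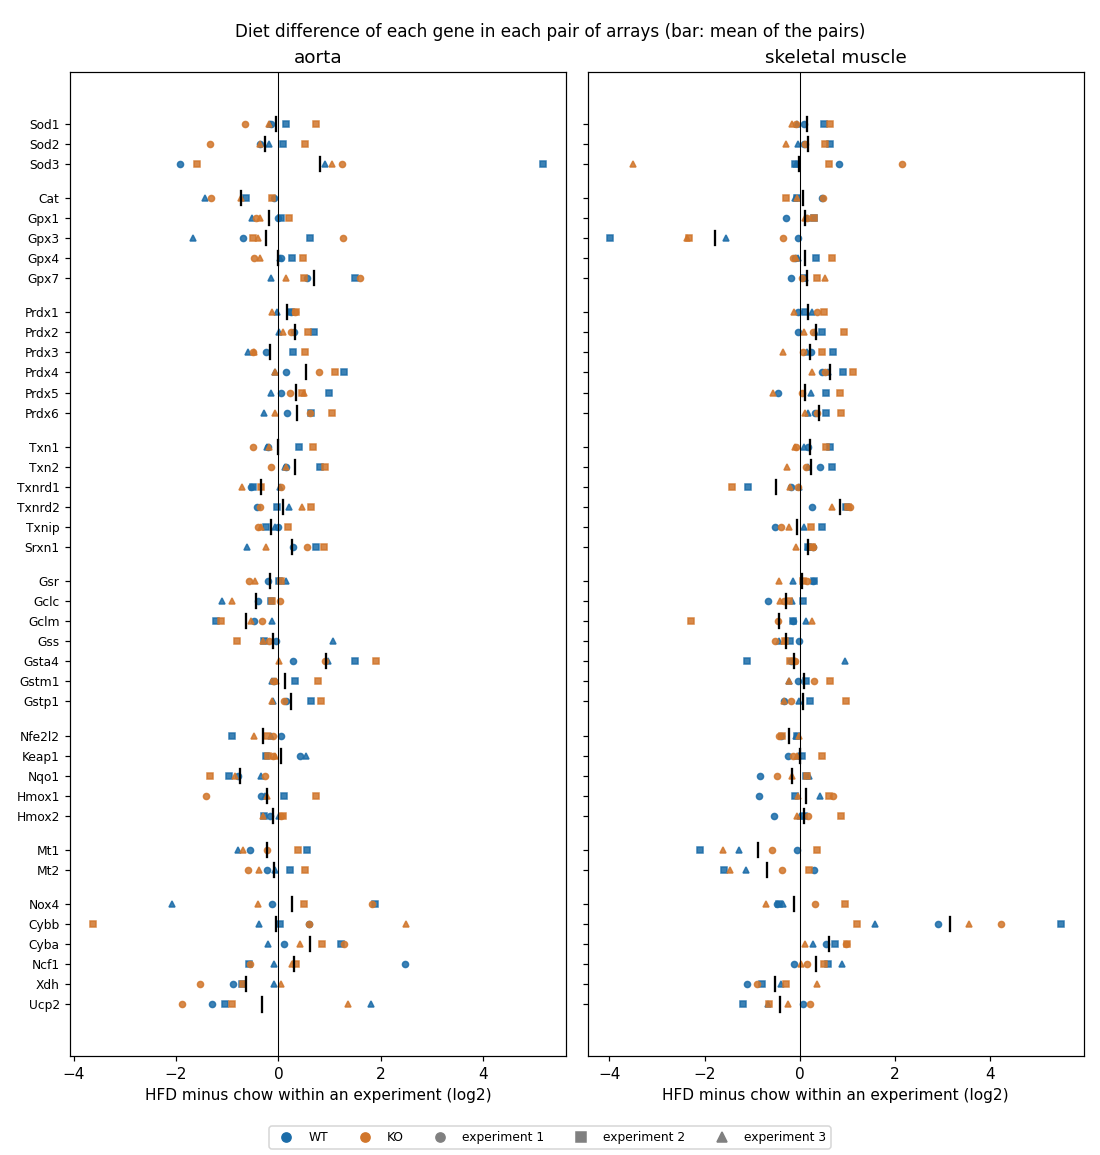
HFD minus chow in log2 signal for each of the 40 genes in each pair of arrays of 1 strain and experiment, in aorta (left) and skeletal muscle (right); colour gives the strain, shape the experiment, and the bar the mean of the pairs. Most genes straddle 0; in muscle all 6 Cybb pairs lie to the right and all 6 Gpx3 pairs to the left.

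In aorta 5 of 39 genes had a difference of 1 sign in all 6 pairs, as 11.4% of all genes did: Gsta4 and Prdx2 were higher and Cat, Gclm and Nqo1 lower on HFD. The 3 with the largest mean were Gsta4, Nqo1 and Cat. Nqo1 was at 0.78, 1.67 and 0.70 in WT chow and 0.00, 0.71 and 0.37 in WT HFD, in the order of experiments 1 to 3. In KO it was at 0.30, 1.47 and 1.06 on chow and 0.03, 0.13 and 0.21 on HFD. Every HFD array lay below its own chow array, though the groups overlapped in WT. The mean difference was -0.76 ± 0.21 (unadjusted p = 0.010, adjusted p = 0.23) and -0.87 without experiment 1.

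Gsta4 was at -2.73, -4.81 and -3.53 in WT chow aorta and -2.45, -3.31 and -2.56 in WT HFD aorta. In KO it was at -3.96, -5.76 and -3.32 on chow and -3.05, -3.86 and -3.31 on HFD. The smallest pair difference was 0.01 and the largest 1.90, both in KO. The largest started from the chow value of -5.76, near the lowest signal well above background on that array (-6.07). The mean difference of Gsta4 was 0.93 ± 0.30 (adjusted p = 0.26), 1.097 without experiment 1 and 0.54 without experiment 2.

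Catalase was at 1.59, 1.84 and 3.16 in WT chow aorta and 1.49, 1.21 and 1.73 in WT HFD aorta. In KO it was at 2.70, 1.88 and 2.68 on chow and 1.37, 1.74 and 1.95 on HFD. The difference was -0.72 ± 0.26 (adjusted p = 0.28) and -0.73 without experiment 1. Gclm, whose promoter stretch is printed above, differed by -0.64 ± 0.22 (adjusted p = 0.28), with pairs from -1.22 to -0.13, a mean of -0.76 without experiment 1 and of -0.37 without experiment 2.

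Other NRF2 targets and glutathione genes in aorta had mean values on either side of 0 and none was called. Txnrd1 differed by -0.33 and Gclc, the catalytic partner of Gclm, by -0.44, each lower in all but 1 or 2 pairs, whereas Hmox1 differed by -0.23 with pairs from -1.41 to 0.73. Srxn1, which restores overoxidised peroxiredoxins, differed by 0.27 on its brightest probe, and its other probes gave 1.005 and 1.1005 (adjusted p = 0.27 for both). Hmox1 was at -0.36, -1.18 and -0.79 (WT chow), -0.69, -1.07 and -1.05 (WT HFD), 0.06, -1.22 and -1.16 (KO chow) and -1.35, -0.49 and -1.39 (KO HFD), with overlapping groups. The summed adipocyte markers were lower on HFD in 6 of 6 aorta pairs (median -1.03 on the log2 scale) and the endothelial ones in 5 of 6 (median -0.68). The brown adipocyte sum was higher in only 1 of 6 pairs (median -1.57, lowest -3.73). The fibroblast sum was higher in 6 of 6 (median 0.17). The part of such cells in these values was not tested.

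In muscle 9 of 39 genes had a difference of 1 sign in all 6 pairs, beside 12% of all genes. Cyba, Cybb, Prdx4, Prdx6 and Txnrd2 were higher on HFD, and Gpx3, Gss, Nfe2l2 and Txnrd1 lower. The 3 with the largest mean were Cybb, Gpx3 and Txnrd2.

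Cybb had the largest mean diet difference of the listed genes, against a chow level that was only partly measured. It was at -5.22, -9.56 and -4.58 in WT chow muscle and -2.32, -4.08 and -3.00 in WT HFD muscle. In KO it was at -6.56, -4.23 and -7.07 on chow and -2.35, -3.03 and -3.52 on HFD. All 6 HFD arrays were above all 6 chow arrays. The 6 HFD arrays were well above background, but only 3 of the 6 chow arrays were, so Cybb entered the test through the groups where it is high. With the dim chow arrays taken at the lowest signal well above background, the difference was 2.43, or 5.40-fold. On the values as they stand it was 3.16 ± 0.58 (adjusted p = 0.10), and 2.95 without experiment 1. With normexp background correction it was 1.88 (adjusted p = 0.022), a call with the same limit. A second Cybb probe was well above background on 0 of 12 aorta and 1 of 12 muscle arrays and could not be tested.

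Other subunits of the phagocyte oxidase also had mean values above 0 in muscle, and none was called. Cyba ran from 2.64 to 3.10 on chow and from 2.77 to 4.07 on HFD, with a mean difference of 0.61 ± 0.18 (adjusted p = 0.19), and 0.53 without experiment 1. In aorta Cyba differed by as much, 0.61, with 5 of 6 pairs higher (adjusted p = 0.32). Rac2, the GTPase of that oxidase in blood cells, differed by 1.26 ± 0.32, higher in 6 of 6 pairs (adjusted p = 0.15), and by 1.15 without experiment 1. Ncf4, named here after its value was seen, differed by 1.62 ± 0.54 with 5 of 6 pairs higher, and by 1.31 without experiment 1. Ncf1 differed by 0.34. The same genes are strongly expressed in phagocytes, which the CD45- gate of the sort was set to leave out. The summed signal of 14 macrophage markers in muscle was 1.90 to 6.18 on chow and 1.70 to 25.03 on HFD, higher on HFD in 5 of 6 pairs, with between 5 and 14 markers well above background. In KO of experiment 3 the sum was lower on HFD (-0.90 on the log2 scale) while Cybb was 3.55 higher. That Cybb difference started from a chow value of -7.07, below the lowest signal well above background on that array (-5.56). The fibroblast sum was higher on HFD in 6 of 6 muscle pairs (median 0.85 on the log2 scale). The neutrophil sum was 14.4 on the WT HFD array of experiment 3, against 0.14 on its chow array and at most 1.19 on the other muscle arrays. The part of such cells in the diet values in muscle was not tested.

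In aorta Rac2 (0.69, and 0.89 on a second probe), Ncf4 (0.93) and Cyba (0.61) also had mean values above 0, and none was called. Cybb did not show that direction there. It was at -6.30, -5.06 and -5.79 (WT chow), -5.70, -5.04 and -6.16 (WT HFD), -7.40, -4.19 and -7.13 (KO chow) and -6.81, -7.82 and -4.64 (KO HFD). The groups overlapped, and the mean difference was -0.05. The macrophage sum was lower on HFD in 6 of 6 aorta pairs. The test of the difference between the tissues' diet responses gave -3.21 ± 1.03 for Cybb (adjusted p = 0.38), and -3.33 without experiment 1, with dim arrays in both tissues. In that test 0 of 40 genes were called and 4 had an unadjusted p under 0.05, Cybb, Txnrd2, Cat and Gsta4, beside 0% and 9.24% of probes.

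**Figure D4:**
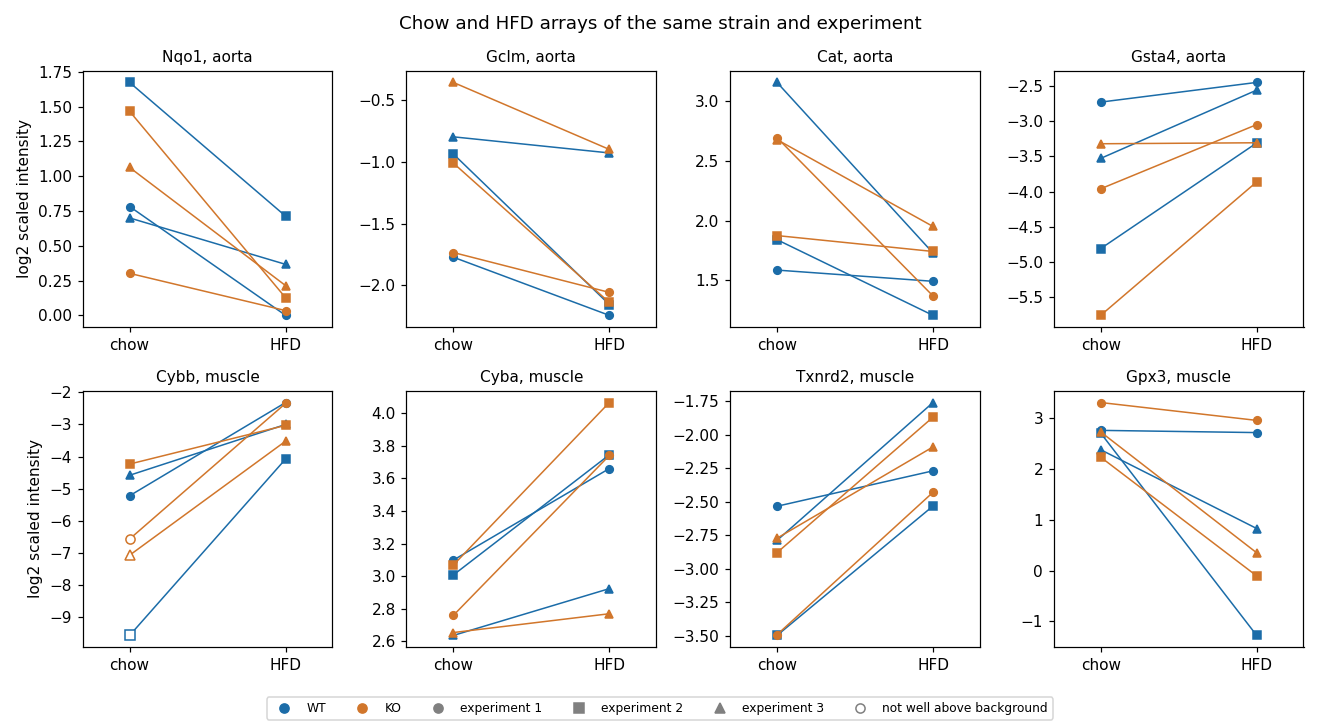
Log2 signal on chow and on HFD for 4 genes in aorta (top) and 4 in skeletal muscle (bottom); lines join arrays of 1 strain and experiment, and open markers were not well above background. The genes were chosen among those with 1 sign in all 6 pairs of the tissue, so that all 6 lines run one way by choice. For Gpx3 the 2 lines of experiment 1 are nearly flat, at -0.04 and -0.35.

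Gpx3 had the largest value in the other direction in muscle. It was at 2.76, 2.70 and 2.38 in WT chow and 2.71, -1.27 and 0.83 in WT HFD. In KO it was at 3.31, 2.23 and 2.73 on chow and 2.95, -0.10 and 0.35 on HFD. The 4 HFD arrays of experiments 2 and 3 lay below every chow array, and the 2 of experiment 1 lay among them. Experiment 1 was also scanned in another session than experiments 2 and 3. The mean difference was -1.77 ± 0.53 (adjusted p = 0.19), -2.56 without experiment 1 and -1.08 without experiment 2. In aorta it was -0.23, with WT chow at 4.93, 2.52 and 4.79, WT HFD at 4.24, 3.14 and 3.11, KO chow at 3.42, 3.60 and 3.83 and KO HFD at 4.68, 3.10 and 3.43.

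Txnrd2, the mitochondrial thioredoxin reductase, was at -2.53, -3.50 and -2.79 in WT chow muscle and -2.27, -2.53 and -1.76 in WT HFD muscle. In KO it was at -3.49, -2.88 and -2.77 on chow and -2.43, -1.87 and -2.09 on HFD. The mean was 0.84 ± 0.17 (unadjusted p = 0.0018, adjusted p = 0.11) and 0.92 without experiment 1. A second Txnrd2 probe gave 0.86. In aorta the mean was 0.09, with 3 pairs up and 3 down.

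The metallothioneins varied together over the muscle arrays. Mt1 was at 3.04, 3.19 and 2.64 (WT chow), 2.97, 1.09 and 1.37 (WT HFD), 3.39, 2.28 and 2.65 (KO chow) and 2.81, 2.64 and 1.03 (KO HFD). Mt2 was at 5.57, 5.69 and 5.49, then 5.86, 4.09 and 4.37, then 5.99, 5.36 and 5.53, then 5.61, 5.54 and 4.08, in the same order. Both were low on the same 3 arrays: WT HFD of experiments 2 and 3 and KO HFD of experiment 3. Their mean diet differences were -0.88 ± 0.34 (adjusted p = 0.27) and -0.68 ± 0.31, and neither was called. Without experiment 1 they were -1.15 and -0.998, and without experiment 3 they were -0.59 and -0.37.

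The peroxiredoxins had mean values above 0 in muscle for 6 of 6 genes, with a median of 0.28, and 5 of 6 in aorta, with a median of 0.33. The medians of all genes were 0.04 and 0.05, and no peroxiredoxin was called. Without experiment 2 each of these means was lower in both tissues, and Prdx5 in muscle turned to -0.18. Prdx4 differed by 0.65 ± 0.17 in muscle (adjusted p = 0.16), with pairs from 0.25 to 1.13. Its mean there was 0.72 without experiment 1 and 0.46 without experiment 2. In aorta Prdx4 differed by 0.53, and by 0.20 without experiment 2. Txnip, which high glucose is known to induce, was at 5.74, 5.71 and 5.98 (WT chow), 5.23, 6.18 and 6.08 (WT HFD), 6.35, 6.41 and 6.21 (KO chow) and 5.95, 6.65 and 5.99 (KO HFD) in muscle. In aorta it was at 5.61, 5.66 and 5.52, then 5.60, 5.43 and 5.46, then 5.72, 5.61 and 5.78, then 5.33, 5.79 and 5.44, in the same order. The mean diet differences were -0.14 in aorta and -0.06 in muscle on this probe, and -0.64 and -0.87 on a second, which was not called either. Hmox1 in muscle was at -0.21, -0.59 and -0.82 (WT chow), -1.07, -0.69 and -0.40 (WT HFD), -0.54, -0.62 and -0.78 (KO chow) and 0.17, -0.01 and -0.82 (KO HFD), a mean difference of 0.12. Nox4 differed by 0.26 in aorta and -0.11 in muscle between diets. Xdh, another oxidant source, was lower on HFD, by -0.64 in aorta and -0.52 in muscle (adjusted p = 0.32 and 0.28). Without experiment 1 these were -0.36 and -0.28. A second Xdh probe gave -0.92 and -0.96 and was not called either.

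Of the 80 further pathway genes 0 were called by diet; 9 of 68 tested had an unadjusted p under 0.05 in aorta and 17 of 65 in muscle, beside 15.1% and 16.4% of all probes. In aorta the 3 with the largest change of 1 sign in all pairs were Pon1, a paraoxonase (-5.53 ± 0.83, adjusted p = 0.096, and -4.22 without experiment 1), Ncf4 (0.93) and Gstz1 (-0.91). In muscle they included Rac2 and Osgin1, a growth inhibitor induced by oxidant stress (-1.17 ± 0.21, adjusted p = 0.10, and -1.25 without experiment 1). A second Osgin1 probe gave -0.05.

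The third comparison asked whether the strains differ. Over all 24 arrays 0 of 40 genes were called and 2 had an unadjusted p under 0.05, beside 0.139% and 4.35% of probes. In chow aorta the counts were 0 and 1 (Gss) of 39, beside 0.0116% and 4.41%. In HFD aorta they were 0 and 0, beside 0.00387% and 1.15%. In chow muscle they were 0 and 0, beside 0% and 2.42%, and in HFD muscle 0 and 1 (Ucp2), beside 0% and 3.15%. Without experiment 1, 0 genes were called in any of these contrasts.

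**Figure D5:**
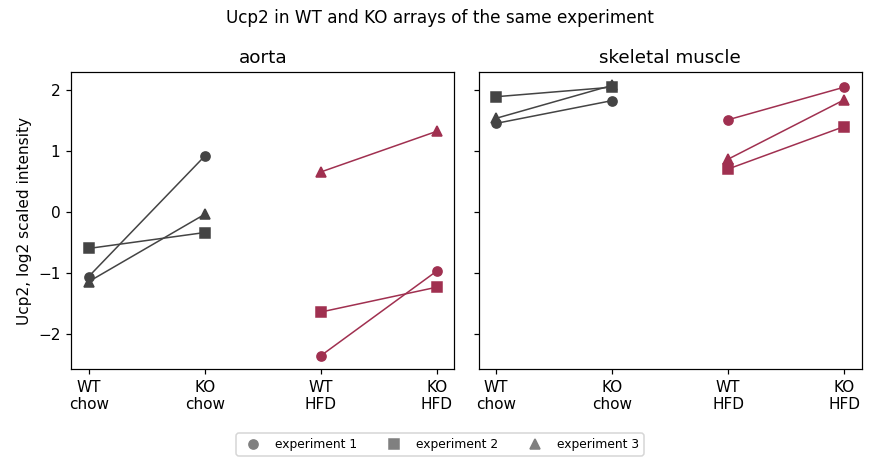
Ucp2 log2 signal in WT and KO arrays of the same tissue, diet and experiment, joined by lines; shape gives the experiment, grey lines are chow and red lines HFD. All 12 lines rise from WT to KO, by 0.16 to 1.98.

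Ucp2 was the gene with the steadiest strain difference, singled out after its values were seen. In aorta it was at -1.06, -0.60 and -1.14 in WT chow and 0.92, -0.34 and -0.04 in KO chow, and at -2.36, -1.64 and 0.66 in WT HFD and -0.97, -1.24 and 1.33 in KO HFD. In muscle it was at 1.45, 1.89 and 1.54 in WT chow and 1.83, 2.05 and 2.08 in KO chow, and at 1.51, 0.71 and 0.87 in WT HFD and 2.05, 1.40 and 1.84 in KO HFD. The array labelled KO was higher in 12 of 12 pairs, where 0.381% of all genes kept 1 sign in all 12. The mean difference was 0.76 ± 0.30 (unadjusted p = 0.019, adjusted p = 0.95) and 0.60 without experiment 1, so that it was not called. Xdh was the other gene with an unadjusted p under 0.05 (0.36 ± 0.16, KO higher in 9 of 12 pairs, adjusted p = 1.00), at 0.29 without experiment 1. The remaining 38 genes had mean differences between -0.36 and 0.64, the largest being that of Sod3, which was dim on most muscle arrays.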

How the data were processed

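The authors deposited the Feature Extraction output of 24 Agilent single-colour arrays, with processed intensity (background-subtracted) and median spot and background intensity per spot, and a table of log2 values. The deposited log2 values equalled the log2 processed intensity plus 1 constant per array, which differs between tissues. The file headers name Feature Extraction 10.5.1.1 and the submitters' processing notes 9.1. Here the log2 of each processed intensity was taken relative to the 75th percentile of the 43379 non-control spots of the same array. Outlier spots were left out and spots averaged per probe (41174 probes). Genes were named by accession through the RefSeq table of GRCm38.p6 (27198 probes, 18539 symbols). A probe was tested if all 3 arrays of 1 or more groups showed it well above background, with limma 3.58.1 (R 4.3.3), with Benjamini-Hochberg adjustment and a threshold of 0.05.

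Diet contrasts had a block for each strain and experiment, tissue contrasts the 8 group means, and strain contrasts a mean for each tissue and diet or the 4 group means of a tissue. The replicate number was read as the experiment: the titles call it a trial, and all 4 groups of a tissue and number shared a slide. In 7 of 12 pairs the deviations of HFD and chow from their group means correlated above 0.1 (0.01 to 0.46). The brightest probe stood for its gene. Where a group was dim, its level was set per array to the higher of the lowest signal well above background and its own. No depth in counts applies; 3 arrays per group limit the precision. Per the methods, the 3 experiments are biological replicates, each from its own pools of mice. Fits were tested on simulated data. The members and lists were chosen with earlier results of these data known. Values on every array are given for genes past the threshold by diet or strain (none), for up to 8 genes whose tissues did not overlap, for the 3 genes per tissue with the largest diet difference of 1 sign in all 6 pairs, and for Sod3, Gpx3, Hmox1, Nox4, Cybb and Txnip; Mt2, Ucp2 and others were added after their values were seen. Alternatives were normexp (offset 50, on median intensities), quantile normalization, the deposited table, no filter and a strict filter, the mean over probes, experiments left out, other blocks and the methods' test; a 75th percentile over probes well above background on every array was added after the data were seen. A gene among the further pathway genes is not reported here. Figures were drawn in matplotlib 3.10.9.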

Additional observations from a re-analysis of the deposited data

How the results depend on the processing

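Of the 21 listed genes called between aorta and muscle, 7 were called in the main setting and every alternative run: Gpx7, Keap1, Mt1, Mt2, Nox4, Prdx4 and Ucp2. The other 14 lost the call in at least 1 setting, and no difference changed sign. Leaving out an experiment gave between 11 and 14 called genes, and the slide as a random block gave 13 genes and 7715 of 27387 probes, in place of 21 and 12630. The median over the 40 genes was -0.06, but 0.10 with quantile normalization and 0.22 with the deposited log2 table, whose constant per tissue shifts all genes. The median of all genes was -0.21, -0.11 and 0.06 in these settings. With experiment as a replicate block 27 genes were called. Some genes not called in the main setting gained a call. Cybb was called with normexp background correction, quantile normalization, the mean over probes and without experiment 2. Ncf1 was called with the mean over probes and with experiment as a replicate block. Prdx5 and Gstp1 were among the others gained.

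Without the replicate block for strain and experiment, 0 listed genes were called by diet in either tissue, and 3 in aorta and 7 in muscle had an unadjusted p under 0.05, in place of 6 and 8. With the slide as a replicate block the counts were 5 and 10, again with 0 called. With normexp background correction 1 gene, Cybb in muscle, was called by diet; the cause was not tested. In the other settings run, experiments left out included, 0 listed genes were called by diet or strain. Dim signal limits Cybb, Ncf1 and Sod3, whose lower values lie near background.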
